A study of Mus musculus with 20 samples.

Results

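Macrophage and myeloid marker genes were followed through castration and testosterone replacement in whole mouse prostates. The set held 10 genes: Lgals3, Aif1, Ctss, Tyrobp, Cd53, Mpeg1, Cyba, Lsp1, Cd68 and Csf1r. Its members were all 15 probe sets whose single gene symbol on the array was one of these, of 12422 probe sets and 8251 genes in all. Mpeg1, Cyba, Lsp1, Cd68 and Csf1r had a pair of probe sets each. After a filter on low signals 12 probe sets were tested, which covered all 10 genes. C57/B6 mice of 10 to 12 weeks formed 4 groups of 5, with 1 Affymetrix MG-U74A array per prostate. The sham group was operated without castration, and its time after surgery is not stated in the labels. Further groups were killed 3 or 14 days after castration. The testosterone group was castrated, received a 15 mg testosterone pellet 14 days later and was killed 3 days after that, so it has no sham or castrated group of its own age after surgery. Whole glands were used, so epithelium, stroma, vessels and leukocytes contribute to each signal.

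Macrophages are phagocytes that clear dying cells and debris and present antigen. Their survival depends on the growth factors CSF1 and IL-34, which bind the receptor encoded by Csf1r. The adaptor encoded by Tyrobp carries an ITAM, a tyrosine motif that passes signals from surface receptors to the kinase Syk. In the prostate, loss of androgen leads to death of secretory epithelial cells and shrinkage of the gland, and androgen makes it regrow. None of the 10 genes is restricted to macrophages: Lgals3 and Cyba are also made by epithelial and other cells, and Cd53, Tyrobp and Lsp1 by other leukocytes.

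Many myeloid promoters lack a TATA box and hold purine-rich sites for PU.1, the transcription factor encoded by Spi1. Promoter windows of 300 bases (250 before to 50 after the start, RefSeq, GRCm38.p6) were found for 7 of the 10 members: Lgals3, Aif1, Ctss, Cd53, Mpeg1, Cyba and Cd68. There was no entry for Tyrobp, Lsp1 and Csf1r. The letters GAGGAA, the core of the PU.1 purine box, were searched on both strands. They occurred in 4 of the 7 windows and in 28.3% of all 32851 windows. These 4 windows are printed because they hold the matches, 5′ to 3′ on the strand of the gene, with each match (TTCCTC where it lies on the opposite strand) in capitals.
Ctss (chr3:95526536-95526835, plus strand): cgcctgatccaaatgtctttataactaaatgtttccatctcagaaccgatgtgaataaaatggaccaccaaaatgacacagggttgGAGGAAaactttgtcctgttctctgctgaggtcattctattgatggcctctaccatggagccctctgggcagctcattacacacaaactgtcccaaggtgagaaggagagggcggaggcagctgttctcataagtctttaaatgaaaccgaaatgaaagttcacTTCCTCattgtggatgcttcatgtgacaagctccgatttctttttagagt
Cd53 (chr3:106790100-106790399, minus strand): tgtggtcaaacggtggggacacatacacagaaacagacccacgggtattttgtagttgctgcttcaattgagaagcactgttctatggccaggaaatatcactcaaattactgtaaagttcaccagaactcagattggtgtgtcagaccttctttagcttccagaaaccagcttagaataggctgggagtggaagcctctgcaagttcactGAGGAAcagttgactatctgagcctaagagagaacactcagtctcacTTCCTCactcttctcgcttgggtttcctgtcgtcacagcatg
Cd68 (chr11:69666121-69666420, minus strand): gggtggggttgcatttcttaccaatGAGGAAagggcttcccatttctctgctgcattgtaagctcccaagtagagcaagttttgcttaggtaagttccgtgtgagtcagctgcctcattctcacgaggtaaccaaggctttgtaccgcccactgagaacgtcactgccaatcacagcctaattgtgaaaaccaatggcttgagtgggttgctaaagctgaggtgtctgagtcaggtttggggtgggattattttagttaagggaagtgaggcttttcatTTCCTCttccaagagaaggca
Aif1 (chr17:35176003-35176302, minus strand): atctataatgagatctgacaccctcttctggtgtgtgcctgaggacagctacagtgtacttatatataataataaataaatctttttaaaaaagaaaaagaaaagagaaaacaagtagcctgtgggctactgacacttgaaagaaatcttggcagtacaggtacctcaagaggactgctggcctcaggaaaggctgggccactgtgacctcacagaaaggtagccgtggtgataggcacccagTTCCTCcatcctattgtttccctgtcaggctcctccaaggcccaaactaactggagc
Counted from the first transcribed base as 1, the matches began at -164 and 1 in Ctss, at -39 and 9 in Cd53, at -225 and 30 in Cd68 and at -7 in Aif1. The letters TATAAA were found in 1 of the 7 windows, that of Ctss, against 13.6% of all windows. AGAACA, the repeated core of the androgen response element, was found in 3 of 7 (Ctss, Cd53 and Mpeg1), against 19.0%. All were searched on both strands, no matches of different patterns overlapped in these windows, and a match of letters is no measured binding site.

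Signals were linear values scaled by the authors, with array medians between 154.2 and 224.4, and having 5 arrays per group limits the precision. The ratio of 3′ to 5′ control signals of Gapdh, a measure of RNA integrity, was high on 4 arrays: replicates 4 and 5 at 14 days (log2 ratio 2.05 and 1.82) and replicates 2 and 5 of the testosterone group (4.54 and 3.93). The other 16 lay between -0.53 and -0.08. Values without these 4 arrays are given below for the members. The treatment was visible in Msmb, a secreted prostate protein, which averaged 10523 in sham, 1092 after 3 days, 134 after 14 days and 7497 with testosterone. Of the other genes used as checks, Fkbp5 averaged 1747, 902, 723 and 3246 in the same order. Pbsn averaged 16904, 15179, 4903 and 10013, and Krt8 3605, 4635, 7107 and 4823. Neither Pbsn nor Krt8 passed the threshold given below at 3 days against sham. Among defining macrophage markers, Adgre1, which encodes F4/80, measured 14.1 to 28.5 in sham, 17.3 to 32.2 at 3 days and 140 to 299 at 14 days. It did not pass the filter, and its 3-day signals overlapped with sham. Itgam, which encodes CD11b, stayed between 5.5 and 70.7 on all 20 arrays, so that marker did not bear out the myeloid label. All log2 changes below are of signal plus 12.7, with the standard error (SE) of a limma model over all 4 groups and p-values adjusted by Benjamini-Hochberg over 6911 probe sets. A change was called when that p was below 0.05.

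The 10 genes were higher in the castrated than in the sham prostate, and more so at 14 than at 3 days. At 3 days 10 of the 12 probe sets were called higher and none lower, against 9.84% of all tested probe sets called higher. Their median log2 change was 1.18, against 0.04 over all probe sets tested. At 14 days all 12 were called higher than sham (background 28.6%), at a median of 2.14 against 0.01, while 24.3% of all probe sets were called lower. The 5 arrays at 14 days lay above the 5 sham arrays for all 12, which was so for 19.4% of all probe sets. Between 3 and 14 days 10 of 12 were called higher (background 20.2%), and the exceptions were the pair of Lsp1 probe sets. Aif1 passed the filter on its 14-day arrays alone. Its higher signal at 14 days than in every other group was thus a condition of its entry, in these counts and those below. The other 11 probe sets passed on 11 to 20 arrays. In whole tissue, more cells of a type and more RNA per cell cannot be told apart.

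**Figure D1:**
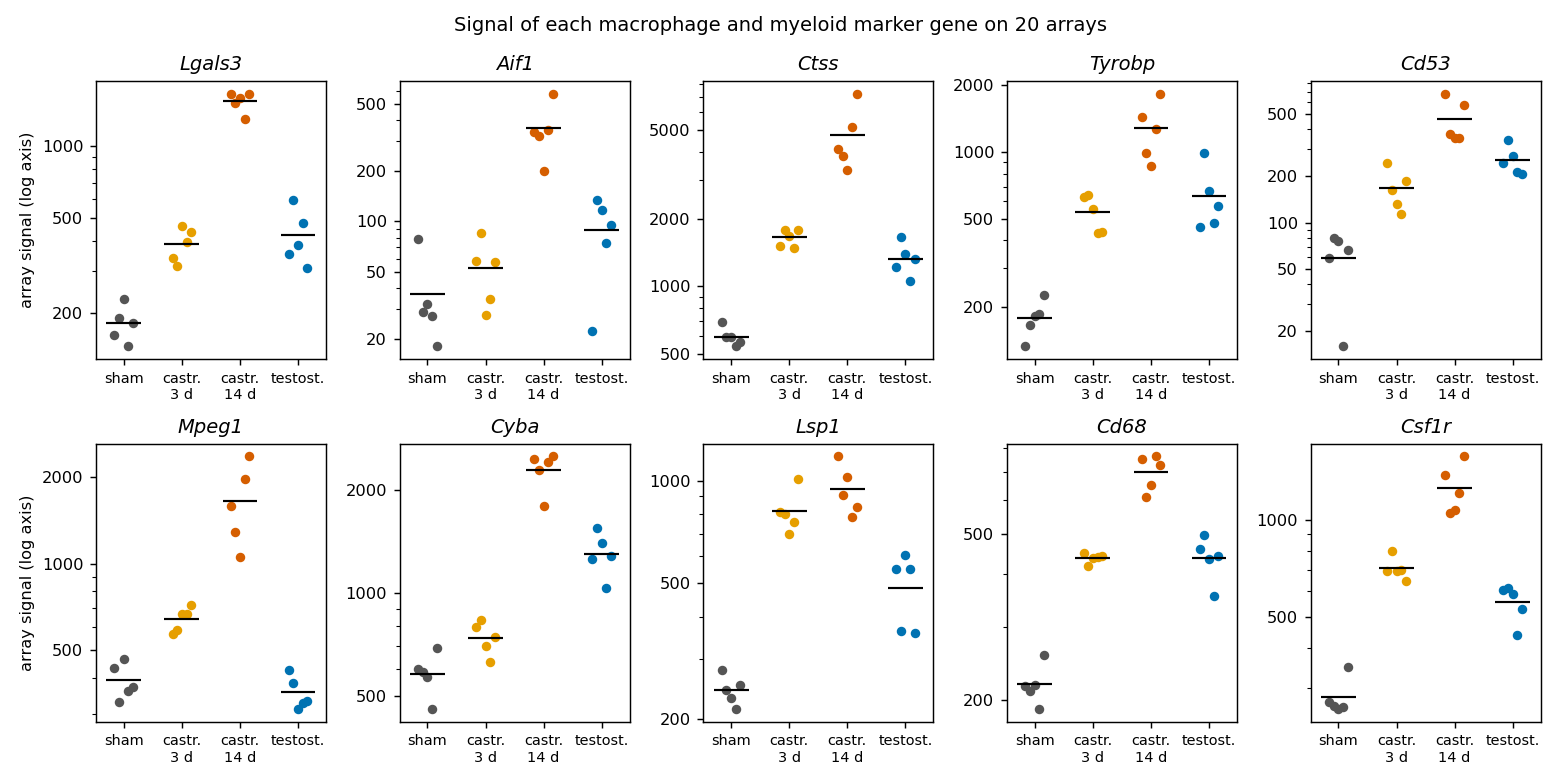
Signal of the 10 marker genes on each of 20 arrays (log axis, scaled per gene), 5 mice per group, with bars at the group means and 1 probe set per gene. For all 10 genes the 14-day arrays lie above the sham arrays. Mpeg1 on the testosterone arrays (311 to 426) lies within the range of sham (330 to 464) or just below it.

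Csf1r encodes the CSF1 receptor, which controls survival and growth of macrophages. Its main probe set (104354_at) gave 271, 264, 258, 262 and 349 on the sham arrays and 693, 800, 690, 697 and 646 at 3 days. At 14 days it gave 1379, 1048, 1068, 1214 and 1573, and with testosterone 605, 612, 589, 438 and 528. The groups did not overlap, and testosterone lay between sham and 3 days. The rise over sham was 2.46-fold at 3 days (log2 1.30 ± 0.12 (SE), adjusted p = 2.04e-06) and 4.30-fold at 14 days (2.10 ± 0.12, adjusted p = 1.14e-10). A second probe set, 161832_r_at, was above the filter on 3 arrays and was not tested. It averaged 187 ± 28.8 (SD, n = 5) in sham and 130 ± 28.7 at 14 days, the opposite order, and without the filter this was not called (log2 -0.50, adjusted p = 0.0784). The probe sets of Csf1r thus disagree.

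Tyrobp encodes the ITAM adaptor DAP12. It ranged from 133 to 226 in sham, from 432 to 640 at 3 days and from 862 to 1835 at 14 days, with no overlap between these groups. The log2 change was 1.52 ± 0.21 (SE) at 3 days (adjusted p = 0.0001) and 2.73 ± 0.21 at 14 days (adjusted p = 5.63e-09). Cd53, a tetraspanin of the leukocyte surface, ranged from 15.9 to 79.9 in sham, from 114 to 244 at 3 days and from 354 to 680 at 14 days. These groups were also apart. Its changes were 1.39 ± 0.28 at 3 days (adjusted p = 0.00253) and 2.79 ± 0.28 at 14 days (adjusted p = 1.39e-07).

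Ctss encodes cathepsin S, a lysosomal protease that trims the invariant chain during antigen presentation. Its sham signals were 694, 595, 594, 540 and 562, and at 3 days they were 1522, 1793, 1684, 1489 and 1784. At 14 days they were 4095, 3829, 3319, 5165 and 7260, with the highest value on replicate 5, an array of high Gapdh ratio. About equal steps on the log2 scale separated the time points, 1.45 ± 0.16 (SE) to 3 days (adjusted p = 9.7e-06) and 1.46 ± 0.16 from 3 to 14 days (adjusted p = 2.01e-06). The second step was 1.17 without the 4 arrays of high Gapdh ratio (adjusted p = 2.64e-06). Cd68, a glycoprotein of the lysosome membrane, had the narrowest spread at 3 days: its probe set 103016_s_at averaged 218 ± 23.8 (SD, n = 5) in sham, 437 ± 11.7 at 3 days and 702 ± 66.8 at 14 days. It rose by 0.97 ± 0.09 (SE) at 3 days (adjusted p = 2.19e-06) and by 1.63 ± 0.09 at 14 days (adjusted p = 1.14e-10). The other Cd68 probe set stayed between 1.5 and 16.9 on all arrays and was not tested.

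Mpeg1 encodes perforin-2, a pore-forming protein of the phagosome. Probe set 99071_at measured 434, 330, 464, 360 and 373 in sham and 567, 589, 668, 667 and 719 at 3 days. It measured 1583, 1294, 1056, 1981 and 2366 at 14 days and 426, 385, 311, 326 and 331 with testosterone. The castrated groups stood apart from sham and from each other, while the testosterone arrays overlapped with sham. The log2 change over sham was 0.70 ± 0.17 (SE) at 3 days (adjusted p = 0.00824) and 2.00 ± 0.17 at 14 days (adjusted p = 1.39e-08). The second Mpeg1 probe set stayed between 0.2 and 9.6 and was not tested.

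Cyba encodes p22phox, the membrane subunit that stabilises the phagocyte NADPH oxidase. Probe set 100059_at gave 600, 590, 571, 459 and 690 in sham and 797, 835, 702, 628 and 747 at 3 days. It gave 2451, 2278, 1794, 2407 and 2499 at 14 days and 1255, 1546, 1402, 1032 and 1279 with testosterone. Sham and 3 days overlapped, and the change between them was not called (log2 0.35 ± 0.12 (SE), adjusted p = 0.0712). The other Cyba probe set, 97013_f_at, passed at 3 days with 0.68 ± 0.22 (adjusted p = 0.0476), but this call ended in 17 of 29 alternative settings (adjusted p 0.0118 to 0.117), among them the loss of any 1 sham array or of 3-day replicate 3, 4 or 5 (log2 0.59 to 0.73). At 14 days both were called, at 1.95 ± 0.12 (adjusted p = 4.34e-10) and 2.18 ± 0.22 (adjusted p = 1.67e-07).

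Lsp1, an actin-binding phosphoprotein of leukocytes, was close to its 14-day level by 3 days. Probe set 104093_at gave 279, 243, 231, 214 and 252 in sham and 812, 796, 698, 757 and 1011 at 3 days. At 14 days it gave 1178, 908, 1024, 784 and 839, which overlaps with 3 days. The log2 change over sham was 1.68 ± 0.15 (SE) at 3 days (adjusted p = 1.58e-06) and 1.89 ± 0.15 at 14 days (adjusted p = 6.73e-09). From 3 to 14 days the difference was 0.21 (95% confidence interval -0.11 to 0.52, adjusted p = 0.283), and 0.32 for probe set 161914_s_at (0.05 to 0.59, adjusted p = 0.0543). Small rises thus remain possible: the alternatives gave 0.13 to 0.35 for the first (adjusted p 0.0128 to 0.547, called in 2 of 29, with array weights and once the 4 arrays with high Gapdh ratios were dropped) and 0.22 to 0.36 for the second (0.0127 to 0.173, called in 7 of 29). The last 7 included the fits without 14-day replicate 3 (0.36) and without testosterone replicate 2, 4 or 5 (0.32 each). The share of the 14-day log2 change already present at 3 days was 89.0% and 82.3% for Lsp1, against 14.5% for Aif1 and 17.8% to 61.6% for the other 9 probe sets. These shares are descriptions and were not tested against each other.

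Aif1 encodes Iba1, an actin-bundling protein of macrophages and microglia. It gave 78.6, 28.7, 32.3, 27.4 and 18 in sham and 58, 85.5, 27.5, 34.3 and 56.9 at 3 days, groups that overlap. At 14 days it gave 342, 320, 200, 352 and 575, and with testosterone 22.2, 133, 117, 74 and 94.5. The change at 3 days was not called (log2 0.42, 95% confidence interval -0.34 to 1.18, adjusted p = 0.491). From 3 to 14 days it was 2.50 ± 0.36 (SE, adjusted p = 3.43e-05). Signals this low make the size depend on the pseudocount: 14 days over sham was 2.93 with 12.7, 3.34 with 1 and 2.30 with 43.2.

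Lgals3 encodes galectin-3, a galactoside-binding lectin secreted by macrophages and epithelia. Its signals were 162, 190, 228, 145 and 182 in sham and 339, 315, 462, 397 and 435 at 3 days. They were 1662, 1522, 1602, 1301 and 1664 at 14 days and 353, 596, 385, 476 and 310 with testosterone. The 14-day arrays stood far above the rest, and testosterone overlapped with 3 days. The rise over sham was 2.08-fold at 3 days (log2 1.05 ± 0.16 (SE), adjusted p = 0.000167) and 8.11-fold at 14 days (3.02 ± 0.16, adjusted p = 3.02e-11). The log2 gain from 3 to 14 days was 1.97 ± 0.16 (adjusted p = 2.25e-08).

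**Figure D2:**
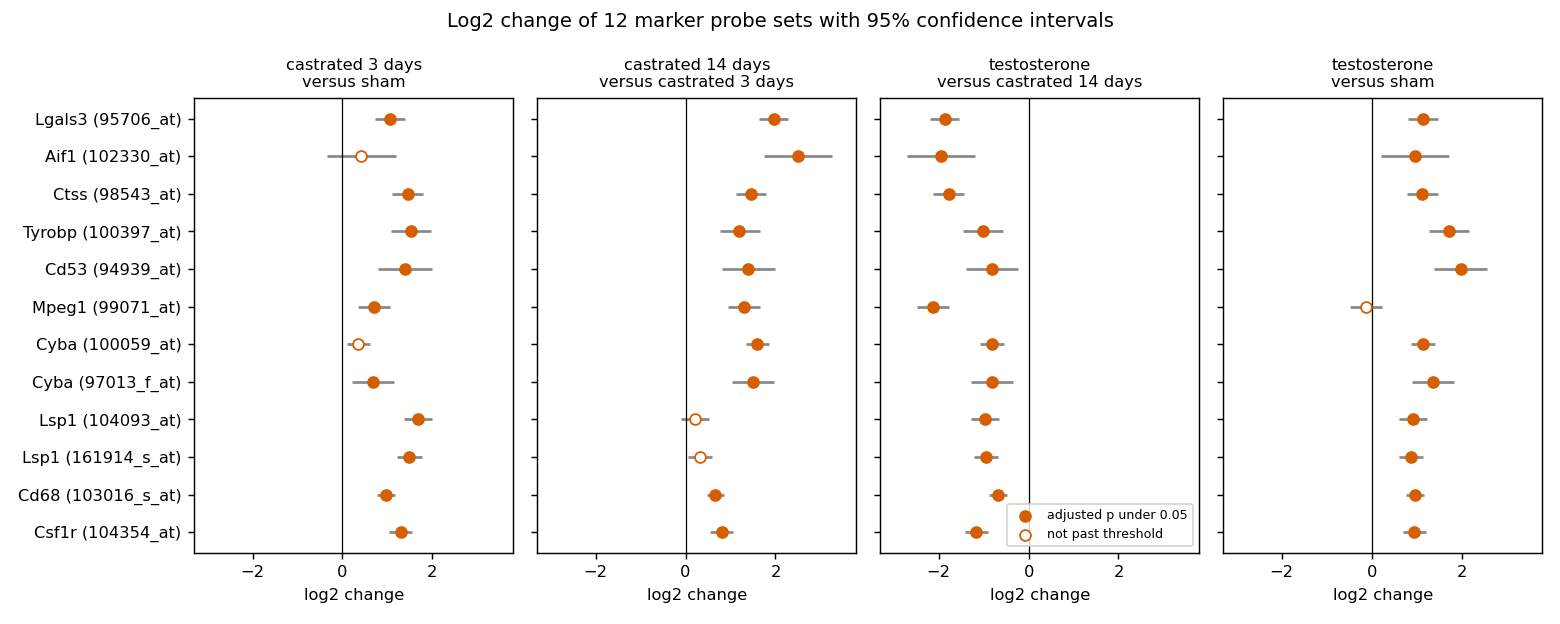
Log2 change (x axis) of the 12 tested probe sets (rows) in 4 comparisons, with 95% confidence intervals from the limma model; filled points have an adjusted p under 0.05. Aif1 and Cyba 100059_at are open at 3 days against sham, both Lsp1 probe sets between 3 and 14 days, and Mpeg1 for testosterone against sham.

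With testosterone the signals of all 10 genes were lower than in mice castrated for 14 days. All 12 probe sets were called lower (background 26.6%, with 18.2% called higher), at a median log2 change of -0.99 against -0.10 over all probe sets. The arrays of the pair of groups did not overlap for 10 of the 12, against 18.2% of all probe sets with testosterone lower. Aif1 (-1.95 ± 0.36 (SE), adjusted p = 0.000215) is counted among these, but it passed the filter on its 14-day arrays alone, so its fall was a condition of its entry. The largest falls of the others were those of Mpeg1 (-2.13 ± 0.17, adjusted p = 7.82e-09), Lgals3 (-1.87 ± 0.16, adjusted p = 1.62e-08) and Ctss (-1.78 ± 0.16, adjusted p = 5.55e-08). Csf1r fell by 1.16 ± 0.12 (adjusted p = 3.33e-07) and Lsp1 104093_at by 0.96 ± 0.15 (adjusted p = 3.48e-05). Cyba fell by 0.81 ± 0.12 (adjusted p = 3.23e-05) and Cd68 by 0.67 ± 0.09 (adjusted p = 1.17e-05). Tyrobp overlapped, since testosterone replicate 2, an array of high Gapdh ratio, gave 988 and 14-day replicate 3 gave 862. The fall of Cd53 (-0.82 ± 0.28, adjusted p = 0.0234) lost its call in 8 of 29 alternative settings (adjusted p 0.00344 to 0.0772), including those without 14-day replicate 1 (-0.67) or 5 (-0.73) or testosterone replicate 4 (-0.76) or 5 (-0.75).

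The size of these falls depends on the scaling of the arrays. With each array centred on its median, the median over all probe sets became 0.09, that of the members -0.79, and 10 of 12 were called lower, with Cd53 (-0.62, adjusted p = 0.0767) and Cyba 97013_f_at (-0.62, adjusted p = 0.0513) the exceptions. Of all 6911 probe sets 1024 were then called lower, and the higher share of the calls moved from 40.6% to 64.1%. Without the 4 arrays of high Gapdh ratio, 10 of 11 probe sets were called lower at a median of -1.01, with Cd53 not called and Aif1 not tested. Of all 6697 probe sets tested there, 1482 were called lower, and 1707 were called higher at 14 days than in sham. In that fit all 11 were called higher at 14 days than in sham, by 3.07 on the log2 scale for Lgals3, 2.79 for Cd53, 2.62 for Ctss, 2.52 for Tyrobp, 2.00 for Csf1r, 1.70 for Mpeg1 and 1.57 for Cd68. The probe sets of Lsp1 gave 2.03 and 1.76, and those of Cyba 1.88 and 2.01. Against 14 days, testosterone then gave -1.96 for Lgals3, -1.84 for Mpeg1, -1.61 for Ctss, -1.08 for Csf1r, -1.01 for Tyrobp, -0.87 for Cd53 and -0.68 for Cd68. Lsp1 gave -0.84 and -1.07 and Cyba -0.81 and -0.96, so the members kept their directions on the arrays of low ratio.

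Most members were still above sham after 3 days of testosterone. Of the 12 probe sets 11 were called higher than sham (background 23.5%), at a median log2 change of 1.05 against -0.09. Without the 4 arrays of high Gapdh ratio these changes ran from 0.69 to 1.92 for the 10 tested probe sets other than Mpeg1, which gave -0.14. Centred arrays gave the same count of 11, beside 2025 of all 6911 probe sets called higher. Among all calls the higher share moved from 44.3% to 62.7% there. Mpeg1 was the exception: 356 ± 48.3 (SD, n = 5) with testosterone and 392 ± 55.1 in sham, a log2 difference of -0.13 (95% confidence interval -0.48 to 0.22, adjusted p = 0.519). Cd53 remained 3.93-fold above sham (log2 1.98 ± 0.28 (SE), adjusted p = 1.28e-05) and Tyrobp 3.28-fold (1.72 ± 0.21, adjusted p = 2.83e-06). As a share of the 14-day log2 change, 70.8% was left for Cd53, 63.0% for Tyrobp, 58.6% for Cyba 100059_at and 58.9% for Cd68. For Csf1r 45.1% was left, for Ctss 38.8% and for Lgals3 38.0%. The call of Aif1 against sham (0.97 ± 0.36, adjusted p = 0.0304) ended in 8 of the 22 alternative settings that tested it (adjusted p 0.00194 to 0.0849). These included the loss of sham replicate 2, 3, 4 or 5 (0.83 to 0.97) or of testosterone replicate 2, 3 or 5 (0.80 to 0.91).

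Against mice castrated for 3 days, the testosterone group had 2 of 12 probe sets called higher and 4 lower, against 19.8% and 31.8% of all probe sets. Both Cyba probe sets were higher with testosterone, 100059_at by 0.80 ± 0.12 (SE, adjusted p = 3.79e-05). Mpeg1 (-0.83 ± 0.17, adjusted p = 0.000455), both Lsp1 probe sets (104093_at -0.75 ± 0.15, adjusted p = 0.000396) and Csf1r (-0.35 ± 0.12, adjusted p = 0.023) were lower. The last call ended with centred arrays (-0.18), with quantile normalization (-0.26), without 3-day replicate 2 (-0.30) and without testosterone replicate 4 (-0.27; alternatives gave adjusted p 0.0036 to 0.321). That of Cyba 97013_f_at (0.68, adjusted p = 0.0157) ended without the 4 arrays of high Gapdh ratio (0.37), without testosterone replicate 2 alone (0.48) and with array weights (0.41; alternatives gave adjusted p 0.00648 to 0.144). For Cd68 the means were 437 and 438, with a confidence interval of -0.20 to 0.19 on the log2 scale. Ctss (-0.32, adjusted p = 0.105) was not called but passed without the 4 arrays (-0.44, adjusted p = 0.00575) and without 14-day replicate 5 (adjusted p = 0.0373). It also passed with array weights (-0.41, adjusted p = 0.0078) and with only the groups compared (adjusted p = 0.0429), and alternatives gave 0.00575 to 0.536. Cd53 (0.59, adjusted p = 0.0872) passed with centred arrays (0.76, adjusted p = 0.031), with quantile normalization (0.73, adjusted p = 0.0273) and with only the groups compared (adjusted p = 0.0282). It also passed without sham replicate 4 (0.59) or 3-day replicate 1 (0.73). Aif1 (0.55, adjusted p = 0.212) passed without testosterone replicate 1 (0.89, adjusted p = 0.0235). Centred arrays moved the higher share of all calls from 38.4% to 56.9%.

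Most other macrophage genes that passed the filter were called in the same directions. For this and the later lists, 28.6% of all probe sets tested were called higher and 24.3% lower at 14 days. With testosterone against 14 days 26.6% were called lower and 18.2% higher. Of 33 macrophage surface and identity genes listed, 13 were tested: at 14 days 12 rose and none fell, at a median of 1.31. With testosterone 11 of the 13 fell and none rose. Fcgr1, Fcgr2b and Slc11a1 would not have passed the filter without their 14-day arrays, so a high 14-day signal was a condition of their entry. Of the other 10 tested genes 9 rose at 14 days and 8 fell with testosterone. Lyz2, the macrophage lysozyme, went from 410 ± 95.3 (SD, n = 5) in sham to 2297 ± 604 at 14 days and 998 ± 193 with testosterone (log2 change at 14 days 2.44, adjusted p = 3.68e-09). Ccr2, the chemokine receptor of inflammatory monocytes, rose by 2.28 (adjusted p = 1.85e-07), and Ly86, a partner of a Toll-like receptor relative, by 2.27 (adjusted p = 1.34e-08). The inhibitory Fc receptor Fcgr2b, 1 of those 3, rose by 1.92 (adjusted p = 5.46e-07). At 3 days 8 of 13 rose, a count that was 5 without replicate 2 of that group. For this and the later lists with no filter, 2319 of all 12422 probe sets were called higher and 2690 lower at 14 days. With testosterone against 14 days 2173 were called lower and 1286 higher. In that fit 15 of the 23 macrophage genes on the array were called higher at 14 days and 1 lower, and 15 were called lower with testosterone and none higher. The lower gene at 14 days was Siglec1, sialoadhesin of tissue macrophages (-0.85, adjusted p = 0.0165). In that fit the scavenger receptors Msr1 (-0.60, adjusted p = 0.17) and Marco (-0.30, adjusted p = 0.1), the inhibitory receptor Pirb (-0.21, adjusted p = 0.432) and the Fc receptor Fcgr3 (0.11, adjusted p = 0.745) were not called. Further values were singled out after they were seen. Mrc1, the mannose receptor, averaged 357 ± 95.4 at 14 days and 325 ± 68.9 with testosterone, and that difference was not called (-0.12, adjusted p = 0.588). Cx3cr1, the fractalkine receptor, was not called at 14 days (-0.23, adjusted p = 0.292).

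The ligand and transcription factors around Csf1r were tested through 10 of 14 listed genes. At 14 days 6 rose and 1 fell, and with testosterone 9 fell and none rose. Csf1 itself went from 351 ± 51.8 (SD, n = 5) to 787 ± 122 at 14 days and 423 ± 65.8 with testosterone (log2 change at 14 days 1.13, adjusted p = 5.59e-07). Csf2ra, a receptor chain for GM-CSF, rose by 1.09 (adjusted p = 9.73e-06), and the transcription factors Cebpa by 0.99 (adjusted p = 1.74e-05) and Runx1, which passed the filter only with its 14-day arrays, by 0.98 (adjusted p = 0.00413). The adaptor Grb2 fell (-0.54, adjusted p = 0.000228). Spi1, which encodes PU.1, rose by 0.56 (adjusted p = 0.00721), from 170 ± 46.8 to 251 ± 33.4.

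Some partners of Tyrobp and Cyba were called. Of 7 tested ITAM signalling genes (16 listed), 2 rose at 14 days, beside the 28.6% of all probe sets called higher. These were the phospholipase Plcg2 (1.48, adjusted p = 3.02e-07) and the phosphatase Ptpn6 (0.42, adjusted p = 0.023), and both passed the filter only with their 14-day arrays. The 5 others were not called, among them Syk (0.25, adjusted p = 0.118). The count was 1 in 8 alternative settings. With testosterone 4 of 7 fell, and 2 with centred arrays, with quantile normalization or without the 4 arrays of high Gapdh ratio. With no filter 3 of 13 were called higher at 14 days and 5 of 13 lower with testosterone, beside 2319 and 2173 of all 12422 probe sets. In that fit the Fc receptor chain Fcer1g, also an ITAM adaptor, gave 1.40 at 14 days (adjusted p = 0.000648). Of the other NADPH oxidase subunits only Rac1 and Rac2 passed the filter. Neither was called at 14 days (-0.05 and 0.26), and Rac2 fell with testosterone (-0.63, adjusted p = 0.00652). With no filter 2 of 5 subunits were called higher at 14 days and 3 of 5 lower with testosterone, beside the same 2319 and 2173 of 12422. The higher pair was Cybb, the catalytic subunit that p22phox supports (0.61, adjusted p = 0.0332, means of 93.6 in sham and 151 at 14 days), and Ncf4, a cytosolic subunit (1.25, adjusted p = 0.00574).

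Genes of the lysosome were called in both directions, beside 28.6% of all probe sets called higher and 24.3% lower at 14 days. Of 19 tested (22 listed), 10 rose and 2 fell at 14 days, at a median of 0.41. Lipa, 1 of those that rose, passed the filter only with its 14-day arrays. Of the other 18 tested genes 9 rose at 14 days and 6 fell with testosterone. The proteases Ctsh (1.84, adjusted p = 1.83e-09), Lgmn (1.74, adjusted p = 6.48e-10), Ctsl (1.04, adjusted p = 1e-05) and Ctsz (1.03, adjusted p = 7.85e-08) rose, while Npc2, a cholesterol carrier, fell (-0.55, adjusted p = 0.000261), as did the protease Ctsd (-0.50, adjusted p = 0.0151). With testosterone 7 fell and 2 rose. Ctsz averaged 875 ± 88.3 (SD, n = 5) at 14 days and 876 ± 40.5 with testosterone. Of 16 complement and uptake genes (26 listed), 8 rose and 3 fell at 14 days. C1qb and C1qc, chains of the first complement component made by macrophages, rose by 2.02 (adjusted p = 3.78e-08) and 1.47 (adjusted p = 5.21e-08). Stab1, a scavenger receptor, rose by 1.33 (adjusted p = 9.33e-08). Abca1, the cholesterol exporter, rose by 1.34 (adjusted p = 2.49e-06) and with testosterone fell by 2.21 (adjusted p = 5.96e-09). Mertk, a receptor for the uptake of apoptotic cells, fell at 14 days from 540 ± 106 to 276 ± 25.3 (-0.92, adjusted p = 6.76e-06), as did C1ra (-0.60, adjusted p = 0.000538) and the C5a receptor C5ar1 (-0.33, adjusted p = 0.0254).

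Galectin and actin regulator genes, listed for comparison with Lgals3 and Lsp1, were called in both directions. Beside them, 28.6% of all probe sets were called higher and 24.3% lower at 14 days. Of 6 tested genes of the galectin list, which includes the ligand gene Lgals3bp, 3 rose and 1 fell at 14 days. With testosterone 2 rose and 2 fell. Lgals1, galectin-1, averaged 969 ± 265 (SD, n = 5) in sham, 3595 ± 453 at 14 days and 5013 ± 1080 with testosterone, a further rise (0.46, adjusted p = 0.0199). Lgals3bp, which encodes a ligand of galectin-3, rose by 1.86 at 14 days (adjusted p = 1.18e-06) and Lgals7 by 1.29 (adjusted p = 0.0346), while Lgals2 fell (-0.55, adjusted p = 0.00722). With testosterone Lgals3bp fell by 0.73 (adjusted p = 0.0116). Of 9 actin regulators 6 rose and 1 fell at 14 days, and with testosterone 4 fell and none rose (2 fell once the 4 arrays with high Gapdh ratios were dropped). The capping protein Capg rose by 1.83 (adjusted p = 1.01e-09), Coro1a by 1.95 (adjusted p = 0.000242), Wipf1 by 1.76 (adjusted p = 1.33e-06) and Tmsb10 by 2.03 (adjusted p = 9.69e-09), while Pfn1 fell (-0.83, adjusted p = 0.0385). Wipf1 passed the filter only with its 14-day arrays. With testosterone Coro1a fell by 1.17 (adjusted p = 0.0159), Wipf1 by 1.11 (adjusted p = 0.000278) and Capg by 1.03 (adjusted p = 2.15e-06). Tmsb10, a thymosin, averaged 4236 ± 911 at 14 days and 4342 ± 1058 with testosterone.

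Markers of some other leukocytes also changed at 14 days, where 28.6% of all probe sets were called higher and 24.3% lower. With no filter 2319 of 12422 probe sets were called higher and 2690 lower at 14 days, and 2173 lower with testosterone. Of 9 tested pan-leukocyte genes 6 rose and 1 fell at 14 days (13 called of 18 without the filter): Laptm5 (1.48, adjusted p = 1.34e-07) and Evi2a (1.37, adjusted p = 3.29e-05; it passed only with its 14-day arrays) rose, and Cd52, which male tract epithelium also makes, fell (-1.33, adjusted p = 6.07e-05). Ptpn6 of this list also passed only with its 14-day arrays, and of the 7 other tested genes 4 rose at 14 days. Ptprc, which encodes CD45, averaged 27.0 in sham, 257 at 14 days and 82.3 with testosterone, below the filter. Of 4 tested mast cell markers 3 rose, Cpa3 by 2.52 (adjusted p = 1.38e-08), Cma1 by 2.51 (adjusted p = 3.18e-07) and Kit by 0.67 (adjusted p = 0.000957), and all 4 fell with testosterone (2 without 14-day replicate 2, 4 or 5, or with the 4 arrays of high Gapdh ratio left out). Cpa3 was above the filter on its 14-day arrays alone, so its differences from 14 days were a condition of entry. Of the other 3, 2 rose at 14 days and 3 fell with testosterone. With no filter 3 of 9 were called higher and 1 lower at 14 days, and 3 lower with testosterone. The summed signal of the 9 mast cell genes on the array ran from 821 to 1148 in sham, 1038 to 1372 at 3 days, 1773 to 2694 at 14 days and 682 to 1196 with testosterone. Tpsab1, a mast cell tryptase, was at 3.5 to 17.4 on all arrays. Of 6 lymphocyte markers 3 rose and 1, Ms4a1, fell. With no filter 5 of 17 were called higher and 3 lower. The lower ones included Cd3e (-0.45, adjusted p = 0.0185) and Cd5 (-0.85, adjusted p = 0.0343). The higher ones included Cd3d (0.79, adjusted p = 0.0346) and Gzma (1.03, adjusted p = 0.00179). Gzmb and Jchain passed the filter only with their 14-day arrays. The summed signal of the 17 lymphocyte genes was 1596 to 2246 in sham, 1793 to 2482 at 3 days, 2739 to 7752 at 14 days and 1433 to 2226 with testosterone. Ighm (2.35, adjusted p = 6.19e-06) and Jchain (1.55, adjusted p = 0.000916), chains of antibodies, were among those that rose, and the sum was not computed without them. Of 7 dendritic cell markers 2 rose and 2 fell, shares near those over all probe sets, at a median of -0.09. Cd74, the invariant chain, gave 2.22 (adjusted p = 4.08e-09) and Flt3 -0.80 (adjusted p = 1.84e-05). The summed signal of the 9 dendritic cell genes was 4364 to 5030 in sham, 6270 to 7372 at 3 days, 8468 to 12872 at 14 days and 3842 to 6178 with testosterone. Cd74 alone averaged 1788 in sham and 8474 at 14 days, and the other 8 genes summed to 2514 to 3427 in sham and 2561 to 2794 at 14 days. Among the 8, Cd83, below the filter, averaged 17.7 in sham, 52.4 at 3 days, 140 at 14 days and 41.0 with testosterone. With no filter it was called higher at 14 days (2.34, adjusted p = 7.02e-07), while Ccr7, also below the filter, was not called (0.17, adjusted p = 0.725). Of 13 neutrophil markers on the array 2 passed the filter, and 1 of these, Ltf, was called higher at 14 days. The summed signal of all 13 was 678 to 1286 in sham, 761 to 1009 at 3 days, 713 to 1770 at 14 days and 694 to 788 with testosterone, ranges that overlap. S100a8, a defining neutrophil gene, averaged 103 in sham and 119 at 14 days. With no filter Mpo (-1.30, adjusted p = 0.000408) and Ngp (-0.51, adjusted p = 0.0235) were called lower at 14 days and Mmp9 higher (0.90, adjusted p = 0.0495). The part of these cells in the members' changes was not tested.

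Markers of cells other than leukocytes also differed, beside 28.6% of all probe sets called higher and 24.3% lower at 14 days. Of 9 fibroblast markers 7 rose at 14 days and none fell, of 5 endothelial markers 4 rose, of 5 adipocyte markers 3 rose and of 10 epithelial markers 5 rose, while all 5 tested prostate secretory markers and 4 of 7 smooth muscle markers fell. The summed signal of the 6 secretory genes on the array ran from 44001 to 49944 in sham and from 7996 to 14697 at 14 days, and that of 11 fibroblast genes from 14592 to 16124 and from 22886 to 29086. In the endothelial and adipocyte counts, Cldn5 and Retn passed the filter only with their 14-day arrays. For the 9 endothelial genes the sums were 1723 to 2556 and 3483 to 4066, and for the 6 adipocyte genes 924 to 2033 and 2921 to 4743. Of 12 skeletal muscle markers 1 was called higher at 14 days than in sham, a count that ran from 0 to 7 over the alternatives. It was 7 without the 4 arrays of high Gapdh ratio, 5 without sham replicate 2 or 14-day replicate 5 and 4 without sham replicate 3. Ckm and Tnni2 passed the filter only with their 14-day arrays. Between 3 and 14 days 8 of the 12 muscle markers were higher (20.2% of all probe sets), at a median of 2.60. Their summed signal ran from 4136 to 20376 in sham, 2228 to 5316 at 3 days, 3294 to 30268 at 14 days and 12083 to 29636 with testosterone, so muscle signals differed widely within groups. The part of such shifts in the members' changes was not tested.

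**Figure D3:**
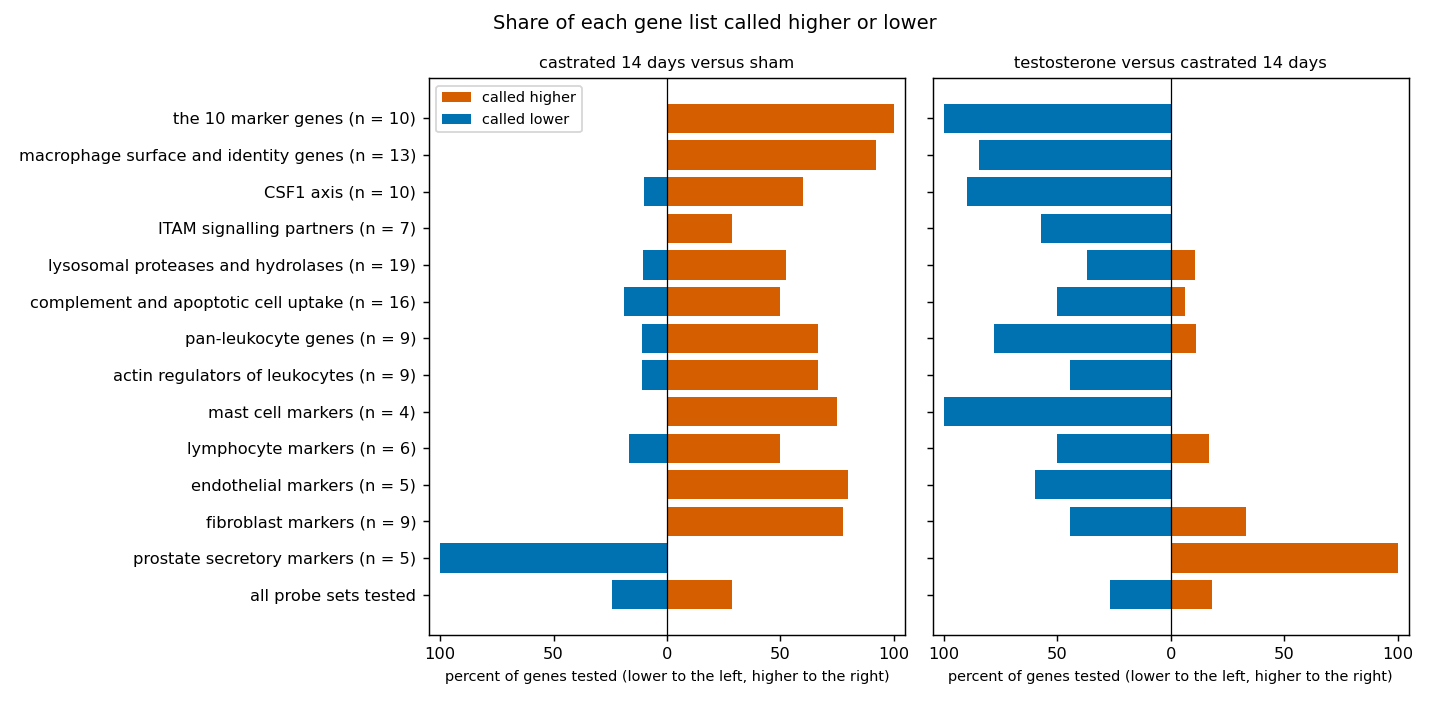
Percent of the tested genes of each list (n in brackets) called higher (right, orange) or lower (left, blue) at 14 days against sham and with testosterone against 14 days, beside all probe sets tested. All 10 marker genes are called higher in the first and lower in the second comparison, where 28.6% and 26.6% of all probe sets are. For Aif1 both were a condition of its entry, since it passed the filter on its 14-day arrays alone.

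Within groups the 10 genes varied together only in part. Over the 45 pairs of members the median Pearson r across 20 arrays was 0.86 (0.58 to 0.97), which carries the differences between groups. After each group's mean was subtracted the median was 0.35 (-0.40 to 0.75), and 0.00 over all gene pairs. Against the mean of the other members, within-group r was 0.39 to 0.80 for 8 genes, 0.19 for Lgals3 and -0.17 for Lsp1. The arrays share their scaling and RNA quality, so these values are descriptions. The mean deviation of the members from their group mean, in SD units, was highest on 14-day replicate 5 (1.18) and testosterone replicate 2 (1.05), both of high Gapdh ratio, and was 0.06 and -0.45 on the other such arrays. It was lowest on 14-day replicate 3 (-1.09) and sham replicate 4 (-0.97).

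**Figure D4:**
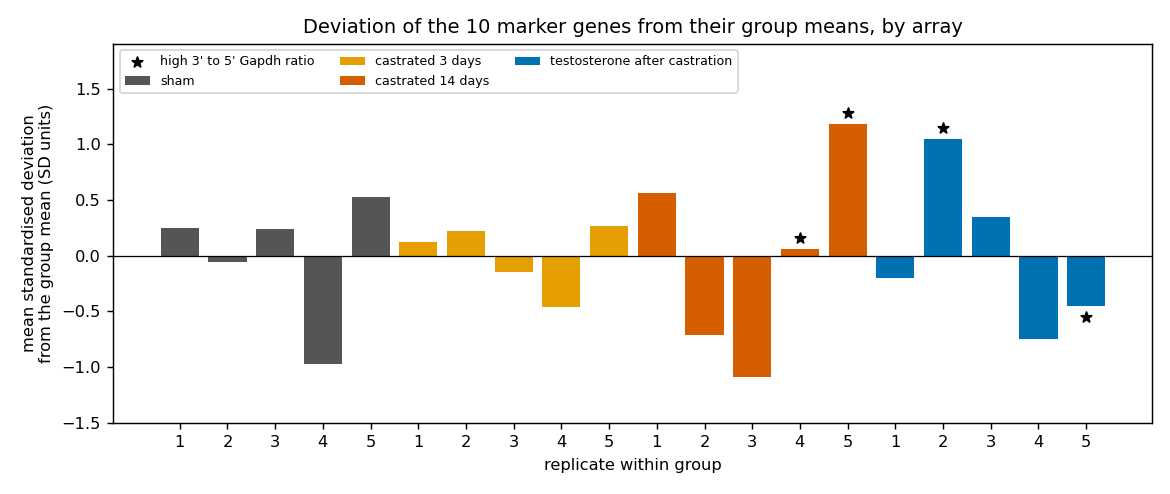
Mean standardised deviation of the 10 marker genes from their group means (y axis, SD units) on each array, with replicates within groups on the x axis. Stars mark the 4 arrays of high Gapdh ratio, of which 14-day replicate 5 (1.18) and testosterone replicate 2 (1.05) have the highest values of their groups.

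Of 5361 other genes ranked, the profile over 20 arrays most like the mean of the members was that of Lyz2 (r = 0.976). Next came Eps15, an endocytosis adaptor (0.974), Psmb10, an immunoproteasome subunit (0.969), Ctsh (0.967), Tcf21, a transcription factor of stromal cells (0.963) and Lgmn (0.961). Rflnb (0.96), the class II antigen presentation genes H2-DMa (0.959) and H2-Ab1 (0.956), and the matrix protein gene Tgfbi (0.958) completed the first 10. Within groups Lyz2 (0.796) and Eps15 (0.778) again ranked first, followed by Cstb (0.721), Eed (0.715), Emp3 (0.712), Lst1 (0.706), Mrpl35 (0.704), Zfp36l2 (0.702), S100a10 (0.697) and H2-Eb1 (0.694).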

How the data were processed

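Whole-prostate RNA was measured on 20 arrays, 1 per mouse. The authors deposited linear signal intensities, 1 per probe set, made with MAS5 version 5.0 per the submitters' processing notes. Means trimmed by 2% at each end lay between 500.21 and 500.32 on every array, so arrays had been scaled alike. Scanner settings are not given in the sources used here. Groups came from the labels, which name no batch or pairing; running numbers in the array titles follow the groups, so any batch that follows them cannot be told apart from treatment.

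Signals were analysed as log2(signal + 12.7), the 10th percentile of all values, with no further normalization. The 66 control probe sets were left out, and 6911 probe sets above 191.0 (the median) on at least 5 of 20 arrays were tested. A linear model over the 4 groups gave 6 two-sided contrasts (limma 3.58.1, R 4.3.3), called at an adjusted p of 0.05. Fold is 2 to the power of the log2 change. Symbols came from GEO's platform annotation: 10833 probe sets had 1 symbol, 396 several and 1193 none. For lists, the probe set with the highest mean stood for a gene.

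The members and gene lists were chosen with earlier results of these data known. Named genes were all members; per list up to 4 called genes with the largest change at 14 days against sham and up to 3 called against the majority; the 10 genes most like the members across arrays and within groups; and Pbsn, Msmb, Fkbp5 and Krt8 as checks. Genes named outside this rule (Syk, Spi1, Rac1, Rac2, Cybb, Adgre1, Itgam, Ptprc, S100a8, Siglec1, Msr1, Marco, Pirb, Fcgr3, Fcer1g, Ncf4, Fcgr1, Slc11a1, Gzmb, Cd3e, Cd5, Cldn5, Retn, Mrc1, Cx3cr1, Lipa, Ckm, Tnni2, Tpsab1, Mpo, Ngp, Mmp9, Cd3d, Gzma, Cd83, Ccr7) were chosen after their values were seen. The contrasts share groups and are not independent. Tests were run on simulated data with 6911 probe sets, of which 200 were changed. There log2 changes of 1 were recovered in 98.5% for 14 days against sham and in 82.1% (testosterone against 3 days) or more for the other comparisons. For changes of 0.5 it was 49.3% for 14 days against sham and 38.8% for testosterone against 14 days, the lowest of the 6. False calls were 3.8% to 7.78% of the calls. Far more than 200 probe sets were called in the real data, so these rates need not hold there. Alternatives varied pseudocount, filter, normalization, samples, array weights and left-out arrays. A planned search of protein sequences was not run.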

Additional observations from a re-analysis of the deposited data

Results flagged for a closer look

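In 48 groups of 5 arrays examined over the 12 tested probe sets, 4 held an array far from the other 4. Far meant a gap to the nearest value, divided by the range, above 0.710, and chance gives about 1 in 20 groups. This ratio was computed on the log2 scale of the tests, with the main pseudocount added, while the signals printed here are linear. Cd53 measured 15.9 on sham replicate 4, against 58.9 to 79.9 on the other sham arrays. Csf1r (104354_at) measured 349 on sham replicate 5, against 258 to 271. Cyba (100059_at) measured 1794 on replicate 3 of the mice castrated for 14 days, against 2278 to 2499. Lsp1 (161914_s_at) measured 492 on replicate 4 of the mice castrated for 3 days, against 649 to 718.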

How the results depend on the processing

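The 12 probe sets were refitted under 29 alternatives, of which 20 left out 1 array each. The number called stayed within 1.5 times in all 6 comparisons: 9 to 11 at 3 days against sham, 11 to 12 at 14 days against sham, 9 to 12 between 3 and 14 days, 10 to 12 for testosterone against 14 days, 10 to 11 against sham and 5 to 8 against 3 days. Of 2046 refits of 72 log2 changes, 1976 kept direction and call, 41 lost and 22 gained the call and 7 changed sign. Aif1 was not tested in 7 settings, since it then failed the filter. The sign changes were all of uncalled values. For Cd68, testosterone against 3 days was 0.16 with centred arrays, 0.10 with quantile normalization, 0.00 without replicate 1 of the 3-day group and 0.06 without testosterone replicate 4, with -0.05 to 0.06 over the fits that left out 1 array. In the same comparison Tyrobp was -0.01 without the 4 arrays of high Gapdh ratio and Lgals3 -0.03 without testosterone replicate 2 (-0.03 to 0.19 over such fits). Mpeg1 against sham was 0.03 with centred arrays. List counts moved by over 1.5 times in 133 of 1827 refits. No paired analysis was run, since each array came from a different mouse and the labels name no pairing. The labels carry no replicate numbers, and those used here follow the order of the samples within each group. Signals of Aif1 and Cd53 in sham lie near the low end of the scale, where the pseudocount sets the size of a change.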
